A study of Homo sapiens with 24 samples.

Results

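The mitochondrial ribosome was examined through 75 nuclear genes of its proteins, of 19775 genes that a single-symbol probe set names on the Affymetrix U133 Plus 2.0 array. The members were the genes whose symbol begins with MRPL (48 genes, named for the large subunit) or MRPS (27 genes, named for the small subunit) followed by a number. They are covered by 140 probe sets, and each gene was read from its brightest one. All 75 had a mean signal of 100 or more in every group, with single-array signals between 334 and 14660. The 4 prostate cancer lines, labelled LNCaP, VCaP, PC3 and NCI-H660, received I-BET762 (GSK525762A) at 0.5 µM or 10 µM, or DMSO as vehicle, for 24 h, with 2 biological replicates in each of 12 groups. Groups are given as vehicle, 0.5 µM and 10 µM where all 3 are listed.

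The mitochondrial ribosome translates the few messenger RNAs of the mitochondrial genome, which encode core subunits of the respiratory chain and of ATP synthase. Its RNA comes from mitochondrial DNA, whereas every one of its proteins is encoded in the nucleus, made in the cytosol and imported. The large subunit forms the peptide bonds and holds the exit tunnel, and the small subunit binds the messenger RNA and decodes it. Many of the proteins have a bacterial counterpart, and others are found only in mitochondria. I-BET762 blocks the acetyl-lysine pocket of BET proteins, chromatin readers that promote transcription by RNA polymerase II.

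The lines were checked against their known markers before the members were read. ERG, which VCaP expresses from a gene fusion, averaged 6984 on vehicle arrays with the LNCaP label, against 18.1 on those with the VCaP label. ETV1, which is rearranged in LNCaP, averaged 43 on vehicle arrays with the LNCaP label, against 375 on those with the VCaP label. Both markers go against the labels, so these arrays are called "labelled LNCaP" and "labelled VCaP" below, and which line each set holds was not settled. Signals of CHGA, a neuroendocrine marker, were highest in NCI-H660 (2568), and CD44, an adhesion receptor typical of PC3, was highest in PC3 (6249). SYP, another neuroendocrine marker, averaged 194 in NCI-H660 vehicle, against 149 on vehicle arrays labelled LNCaP. ERG averaged 138 in NCI-H660 vehicle, above PC3 (7.7) but far below the arrays labelled LNCaP. The paper reports ERG expression in NCI-H660 as well as VCaP. Whether the low ERG signal bears on the identity of the NCI-H660 arrays was not tested. All 24 arrays had a trimmed mean of 500, and 44.35% to 50.05% of probe sets reached 100 on an array. Every line is an established culture, and each array measured the pooled RNA of one culture scaled to a fixed mean, so fewer cells of a type and less RNA per cell cannot be told apart.

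I-BET762 lowered the signals of most mitochondrial ribosomal protein genes on arrays labelled LNCaP, of a large share on arrays labelled VCaP, of fewer in PC3, and of few in NCI-H660. A gene was called lower or higher when limma gave a Benjamini-Hochberg adjusted p under 0.1 over all 54613 probe sets and its mean reached 100 in either group. At 10 µM, 62 of the 75 members were lower on arrays labelled LNCaP (82.7%) and 2 were higher. Of all probe sets, 11.2% were called lower and 13.3% higher in that comparison, and of the probe sets that reached a mean of 100, 22.5% were lower and 26.8% higher. At 0.5 µM, 42 members were lower and 3 higher there, against 6.36% lower and 8.04% higher of all probe sets and 13% and 16.4% of those at 100.

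On arrays labelled VCaP, 25 members were lower and 1 higher at 0.5 µM, against 4.77% and 5.17% of all probe sets and 10.1% and 10.9% of those at 100. At 10 µM, 40 were lower and 1 higher, against 8.34% and 9.72% of all probe sets and 17.2% and 20.1% of those at 100. In PC3, 10 were lower and 0 higher at 0.5 µM (3 higher at an unadjusted limma p under 0.05), against 1.7% and 2.69% of all probe sets and 3.45% and 5.45% of those at 100. In PC3 at 10 µM, 25 were lower and 2 higher, against 6.01% and 6.7% of all probe sets and 12.1% and 13.5% of those at 100. The share of members lower was above both backgrounds in each of these comparisons.

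NCI-H660 differed from this pattern. At 0.5 µM, 1 member was lower and 3 were higher, against 1.24% and 1.62% of all probe sets and 2.41% and 3.14% of those at 100. At 10 µM, 11 were lower and 18 were higher, against 7.61% and 7.12% of all probe sets and 14.7% and 13.8% of those at 100. The lower share of 14.7% thus equalled that of the probe sets at 100, and the higher share was 24%. With each array centred on its median instead, 4 were lower and 26 higher at 10 µM, and 0 were lower and 1 higher at 0.5 µM. Centring also raised the median change of probe sets at 100 from -0.0351 to 0.1612 at 10 µM. The share of all probe sets called under centring is not given, so these counts have no background beside them.

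**Figure D1:**
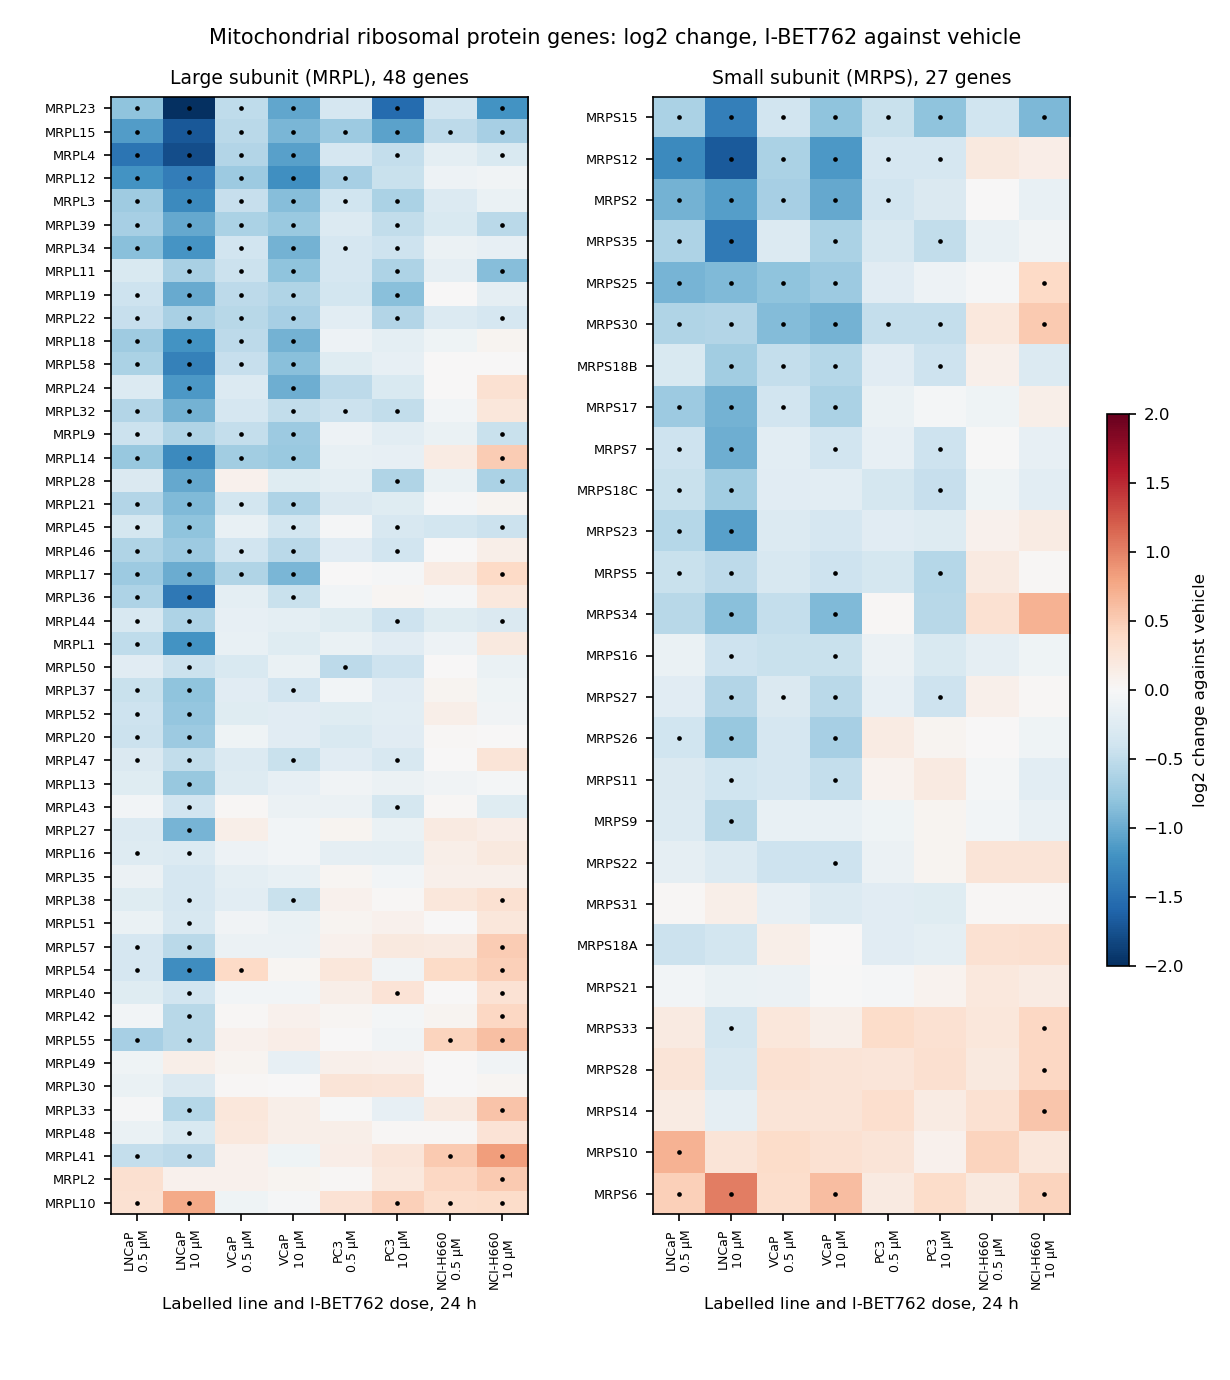
Log2 change of each of the 75 genes (rows, ordered by their mean change) at each dose against vehicle in each labelled line (columns), with blue for lower and red for higher and a black dot where the gene was called. The labelled LNCaP column at 10 µM holds 62 dots on lower genes, and the NCI-H660 column at 10 µM holds 18 on higher genes.

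**Figure D2:**
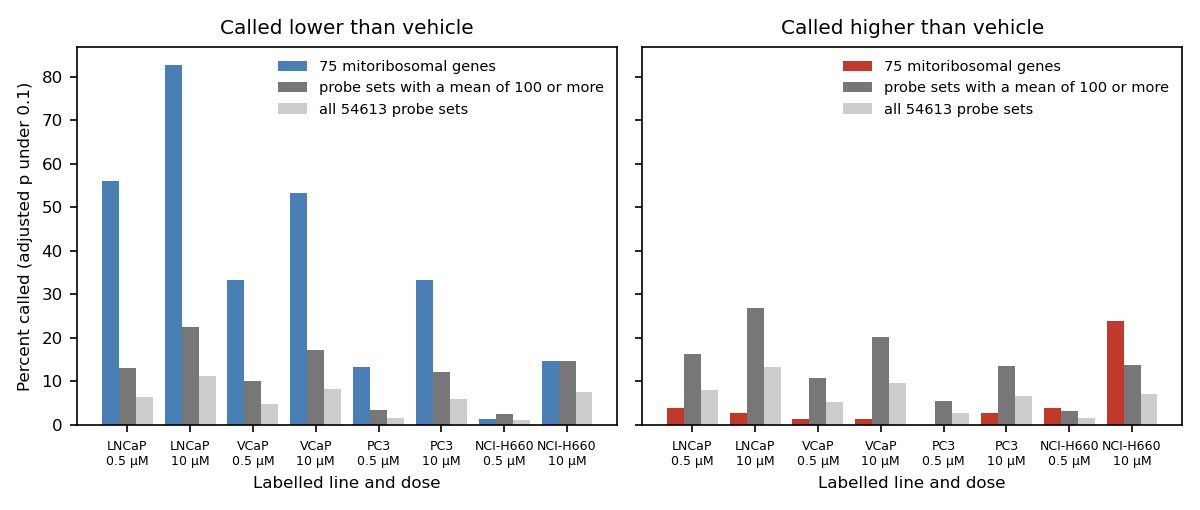
Percent of the 75 genes (coloured bars), of probe sets with a mean of 100 or more (dark grey) and of all 54613 probe sets (light grey) called lower (left panel) or higher (right panel) than vehicle. The coloured bar is tallest for lower genes on arrays labelled LNCaP at 10 µM, at 82.7%.

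The medians of the members moved with the counts. On arrays labelled LNCaP the median log2 change of the 75 genes was -0.40 at 0.5 µM and -0.69 at 10 µM, whereas the median of all probe sets was 0.15 and 0.12. For labelled VCaP, the members' median was -0.26 at 0.5 µM and -0.39 at 10 µM, beside 0.07 and 0.12 for all probe sets. In PC3 it was -0.13 at 0.5 µM and -0.21 at 10 µM, beside 0.03 and -0.01. In NCI-H660 it was 0.01 at 0.5 µM and 0.06 at 10 µM, beside -0.03 and -0.08. Both arrays of each group at 10 µM lay on the same side of vehicle. Their medians relative to the vehicle mean were -0.68 and -0.64 on arrays labelled LNCaP at 10 µM, -0.43 and -0.34 on arrays labelled VCaP, -0.22 and -0.16 in PC3 and 0.07 and 0.09 in NCI-H660. In NCI-H660 at 0.5 µM the arrays lay on either side of it, at 0.07 and -0.03.

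The falls were mostly under 2-fold. At 10 µM, 21 members (28%) fell more than 2-fold on arrays labelled LNCaP, against 4.87% of all probe sets and 9.81% of those at 100. On arrays labelled VCaP 5 did (6.67%), against 3.31% and 6.84%, and these were MRPL12, MRPS12, MRPL4, MRPL23 and MRPS2. In PC3 the fall exceeded 2-fold in MRPL23 and MRPL15 (2.67%), against 1.7% and 3.42%, and in NCI-H660 in MRPL23 alone (1.33%), against 2.85% and 5.51%. Outside the labelled LNCaP arrays, the share of members past 2-fold at 10 µM was therefore near or below that of probe sets at 100. At 0.5 µM, MRPL4, MRPS12, MRPL12 and MRPL15 fell more than 2-fold on arrays labelled LNCaP (5.33%), against 1.85% and 3.79%. At that dose 0 members did so elsewhere, against backgrounds of 1.6% and 3.39% for labelled VCaP, 0.432% and 0.874% for PC3, and 0.386% and 0.751% for NCI-H660.

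With each line fitted by itself, 49 and 29 members were lower at 10 µM on arrays labelled LNCaP and VCaP, but only 14 and 1 at 0.5 µM, and only 1 in PC3 at 10 µM and 0 at 0.5 µM, where limma gave 3 an unadjusted p under 0.05. The smaller counts therefore rest on a spread pooled over the 4 lines, and leaving out 1 of the 2 arrays labelled VCaP vehicle (replicate 1) reduced the 25 at 0.5 µM to 14.

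Large subunit proteins are described first. MRPL15, the counterpart of bacterial L15 (gene on chromosome 8), was the member called lower in all 8 dose comparisons. Its signals on arrays labelled LNCaP were 7574 and 7346 in vehicle, 3523 and 3372 at 0.5 µM, and 2229 and 2412 at 10 µM. Under the label VCaP, they were 7083 and 6698, then 4738 and 4759, then 3675 and 3654. In PC3 they were 5728 and 5493, then 3364 and 3436, then 2489 and 2848. Every treated array lay below both vehicle arrays of its line in these 3 lines. In NCI-H660 the signals were 5748 and 5605 in vehicle, 4203 and 3713 at 0.5 µM, and 3710 and 3478 at 10 µM, again without overlap with vehicle. The log2 change at 10 µM was -1.69 ± 0.10 (SE, n = 2 each, limma adjusted p = 8.47e-08) on arrays labelled LNCaP. It was -0.91 (adjusted p = 3.9e-05) on arrays labelled VCaP, -1.07 in PC3 (adjusted p = 3.22e-05) and smallest in NCI-H660, at -0.66 (adjusted p = 0.000898).

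MRPL23, whose bacterial counterpart sits at the mouth of the exit tunnel (gene on chromosome 11), had the largest fall among the members. For labelled LNCaP, it read 3680 and 3694 in vehicle, 2172 and 2034 at 0.5 µM, and 917 and 874 at 10 µM, a log2 change of -2.04 ± 0.11 (SE, n = 2 each, limma adjusted p = 3.74e-08) at 10 µM. In PC3 it read 4373 and 4453, then 3483 and 3495, then 1399 and 1641, and its change of -1.54 at 10 µM (adjusted p = 3.61e-06) was the largest there. At the low dose in PC3 its value of -0.34 was not called (adjusted p = 0.149). In NCI-H660 it read 1660 and 1819 in vehicle, 1321 and 1344 at 0.5 µM, and 697 and 832 at 10 µM, a change of -1.19 at 10 µM (adjusted p = 1.91e-05). For labelled VCaP, it read 5718 and 5377, then 3878 and 3930, then 2814 and 2595, with changes of -0.51 and -1.04 at 0.5 µM and 10 µM. MRPL23 was called lower in 6 of the 8 comparisons. A second, dim MRPL23 probe set (mean signal 66.4) gave 0.57 for labelled VCaP at 10 µM and was not called.

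MRPL4, whose bacterial counterpart lines the exit tunnel (chromosome 19), had the largest fall at 0.5 µM on arrays labelled LNCaP. Its signals there were 1752 and 1951 in vehicle, 673 and 669 at 0.5 µM, and 524 and 558 at 10 µM, changes of -1.46 ± 0.11 and -1.77 ± 0.11 (SE, n = 2 each, limma adjusted p = 3.62e-06 and 9.34e-08). Its other probe sets gave -1.06 and -1.74 at 10 µM in the same comparison. On arrays labelled VCaP it read 2890 and 2879, then 1910 and 1912, then 1388 and 1317. In PC3 it read 5292 and 4802, then 4204 and 3778, then 3721 and 3553, and only the 10 µM change of -0.47 was called (adjusted p = 0.0144). In NCI-H660 its change of -0.30 at 10 µM stood at the threshold (adjusted p = 0.0995).

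MRPL12, which forms the flexible stalk that recruits translation factors (chromosome 17), was called lower in 3 lines and in neither comparison of NCI-H660. Under the label LNCaP, it read 4745 and 4835 in vehicle, 2163 and 2018 at 0.5 µM, and 2250 and 1496 at 10 µM. For labelled VCaP, it read 3107 and 3065, then 2022 and 1736, then 1306 and 1347, and its change of -1.22 ± 0.17 at 10 µM (SE, n = 2 each, limma adjusted p = 0.000164) was the largest of any member in that comparison. The arrays of both doses lay below vehicle in both lines. In PC3 it read 4998 and 5240, then 3454 and 3016, then 3984 and 3539, with -0.66 at 0.5 µM called (adjusted p = 0.0466) and -0.45 at 10 µM not called (adjusted p = 0.115). In NCI-H660 it read 958 and 1136 in vehicle, 948 and 1000 at 0.5 µM, and 1014 and 971 at 10 µM, and the groups overlapped. A second MRPL12 probe set lay near background, with a mean signal of 10.2.

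MRPL10, which anchors MRPL12 to the body of the subunit, moved the other way. For labelled LNCaP, it read 1476 and 1555 in vehicle, 1814 and 1916 at 0.5 µM, and 2555 and 2554 at 10 µM, a change of 0.75 ± 0.09 at 10 µM (SE, n = 2 each, limma adjusted p = 3.48e-05). In PC3 it read 2729 and 2654, then 3351 and 3246, then 3634 and 3858, and in NCI-H660 it read 1171 and 1188, then 1494 and 1518, then 1534 and 1512. It was called higher in 5 of the 8 comparisons, the most of any member. On arrays labelled VCaP it read 2317 and 2113, then 2103 and 2071, then 2180 and 2144, and was not called at either dose. MRPL11, at the base of the same stalk, fell: it read 3413 and 3127, then 2578 and 2272, then 1985 and 1739 on arrays labelled VCaP, and 2093 and 2078, then 1956 and 1723, then 1186 and 1124 in NCI-H660. Its change of -0.85 in NCI-H660 at 10 µM (limma adjusted p = 0.000264) was among the 3 largest falls there.

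**Figure D3:**
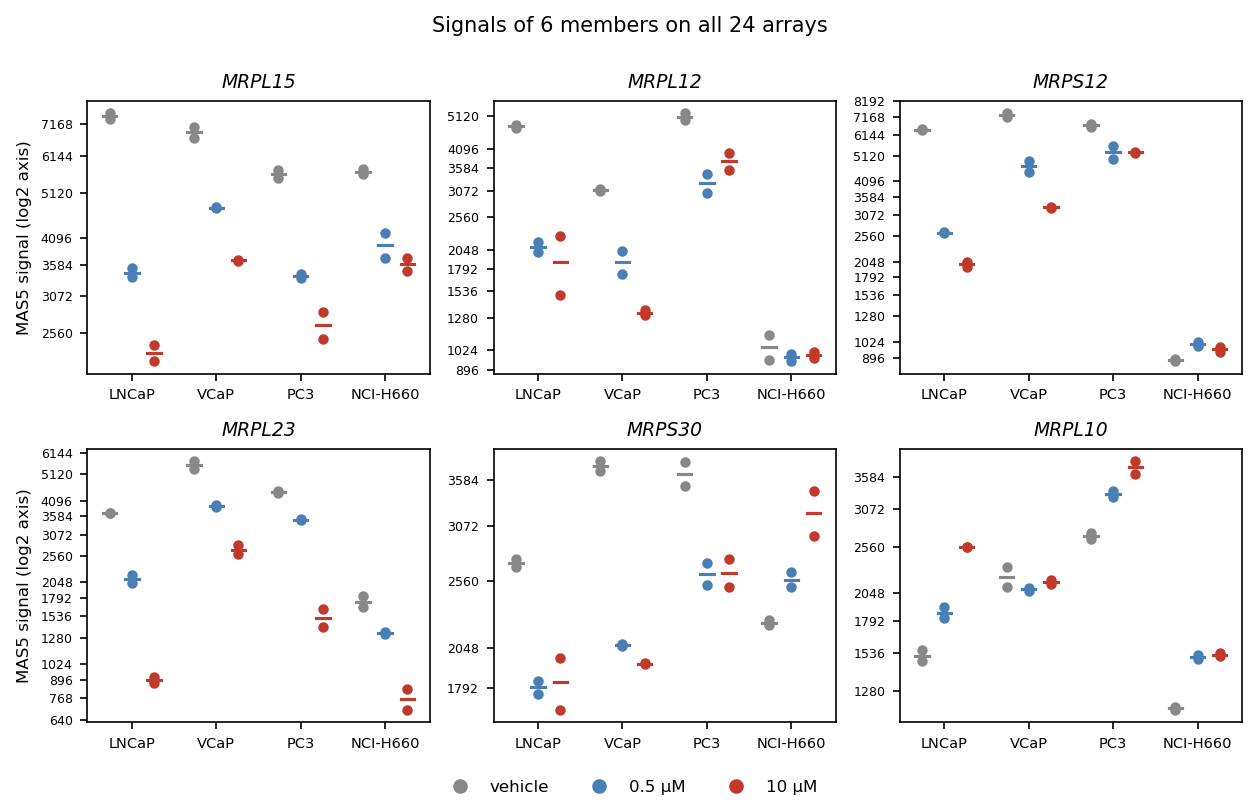
MAS5 signal (log2 axis, its own scale in each panel) of 6 members on every array, with the labelled lines along the horizontal axis, colours for vehicle, 0.5 µM and 10 µM, dots for the 2 arrays of a group and bars for their mean. MRPL15 and MRPL23 are lower at 10 µM in all 4 lines, MRPL12 and MRPS12 sit far lower in NCI-H660 vehicle than elsewhere, MRPS30 is lower in 3 lines and higher in NCI-H660, and MRPL10 is higher in 3 lines.

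Further core proteins of the large subunit fell in 5 or more of the 8 comparisons. MRPL3, whose bacterial counterpart reaches towards the peptidyl transferase centre, read 11346 and 11183 in vehicle, 6982 and 6836 at 0.5 µM, and 4660 and 4700 at 10 µM on arrays labelled LNCaP, a change of -1.27 ± 0.10 at 10 µM (SE, n = 2 each, limma adjusted p = 6.28e-07). It was called lower in 6 comparisons and in neither of NCI-H660 (-0.27 and -0.14). MRPL34, another protein with a bacterial counterpart, read 5398 and 5065, then 4101 and 3878, then 2775 and 2653 on arrays labelled VCaP, and its change of -0.95 at 10 µM had an adjusted p of 1.07e-05. MRPL22, whose counterpart also lines the exit tunnel, fell by 0.46 and 0.65 on arrays labelled LNCaP and by 0.56 and 0.66 on arrays labelled VCaP at 0.5 µM and 10 µM, and at 10 µM by 0.58 in PC3 and by 0.34 in NCI-H660 (adjusted p = 0.0863). MRPL9 fell in 5 comparisons, among them NCI-H660 at 10 µM, where it read 2490 and 2374 against 3378 and 3213 in vehicle. MRPL32 read 4154 and 3742 there at 10 µM, against 3427 and 3320 in vehicle, and was not called (adjusted p = 0.273), although it fell by 0.59 and 0.95 on arrays labelled LNCaP.

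MRPL19 fell by 0.84 in PC3 at 10 µM (limma adjusted p = 0.00312), where it read 1450 and 1721 against 2584 and 3093 in vehicle. A dim MRPL19 probe set with a mean of 83 was higher by 0.75 on arrays labelled LNCaP at 0.5 µM and by 0.87 on arrays labelled VCaP at 10 µM, where the main one fell by 0.42 and 0.60. The probe sets of this gene therefore disagree.

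Proteins that occur only in mitochondrial ribosomes were among those that fell as well. MRPL39 read 3934 and 3971 in vehicle, 2476 and 2538 at 0.5 µM, and 1812 and 2075 at 10 µM on arrays labelled LNCaP, and 2211 and 2188, then 1749 and 1792, then 1539 and 1483 in NCI-H660. Its change at 10 µM was -1.03 ± 0.11 on arrays labelled LNCaP and -0.54 ± 0.11 in NCI-H660 (SE, n = 2 each, limma adjusted p = 1.39e-05 and 0.00569). A dimmer MRPL39 probe set (mean signal 80.6) gave 0.57 for labelled LNCaP at 10 µM and was not called. MRPL45, which faces the inner membrane at the tunnel exit, fell by 0.81 on arrays labelled LNCaP at 10 µM and by 0.32 to 0.43 in the other 3 lines, with the PC3 value at the threshold (adjusted p = 0.0998). MRPL46 fell at 10 µM by 0.72 for labelled LNCaP, by 0.54 for labelled VCaP and by 0.39 in PC3, and was 0.11 in NCI-H660 (adjusted p = 0.612). MRPL50 was called lower in PC3 at 0.5 µM, reading 912 and 1133 against 1413 and 1533 in vehicle (log2 change -0.53, adjusted p = 0.0931).

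Small subunit genes follow. MRPS12, which helps to form the decoding centre (chromosome 19), read 6378 and 6454 in vehicle, 2624 and 2644 at 0.5 µM, and 2052 and 1966 at 10 µM on arrays labelled LNCaP, changes of -1.28 ± 0.09 and -1.68 ± 0.09 (SE, n = 2 each, limma adjusted p = 3.12e-06 and 3.8e-08). For labelled VCaP, it read 7392 and 7171, then 4890 and 4455, then 3277 and 3272. In PC3 it read 6578 and 6731, then 5568 and 4975, then 5256 and 5288, and the change was -0.34 at both doses (adjusted p = 0.075 and 0.0359). In NCI-H660, where it started far lower, it read 867 and 884 in vehicle, 1024 and 991 at 0.5 µM, and 942 and 979 at 10 µM, and was not called.

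MRPS15, counterpart of a bacterial protein that binds ribosomal RNA early in assembly, was lower in 7 comparisons, more than any other small subunit gene. Under the label VCaP, it read 14235 and 13909 in vehicle, 10522 and 11152 at 0.5 µM, and 8161 and 8005 at 10 µM. In NCI-H660 it read 3946 and 4082, then 3203 and 2880, then 2202 and 2108, changes of -0.40 ± 0.12 (limma adjusted p = 0.13) and -0.90 ± 0.12 (SE, n = 2 each, adjusted p = 0.000288). On arrays labelled LNCaP its change at 10 µM was -1.36 and in PC3 -0.81, while a dimmer MRPS15 probe set (mean signal 189) gave 0.04 in PC3 and was not called. MRPS2 read 3875 and 3948, then 2070 and 1978, then 1844 and 1794 on arrays labelled LNCaP, and 3038 and 3084, then 1902 and 1954, then 1437 and 1558 on arrays labelled VCaP, without overlap at either dose. In PC3 it fell at 0.5 µM (-0.38, adjusted p = 0.07), the 10 µM value of -0.29 was not called (adjusted p = 0.103), and in NCI-H660 the values were 0.00 and -0.15. MRPS25 read 3073 and 3388 in vehicle, 1780 and 1899 at 0.5 µM, and 1819 and 2114 at 10 µM on arrays labelled VCaP, but in NCI-H660 it was higher at 10 µM, with 1910 and 1841 against 1412 and 1436 in vehicle (adjusted p = 0.0756).

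The promoters of the members were searched for short motifs, because so many of them moved together. RefSeq promoters of build GRCh38.p14, with 250 bases before the start and 50 after, matched 67 of the 75 genes. The E-box CACGTG, a site bound by MYC and related factors and identical on both strands, stood in 9 of the 67 (13.4%), against 7.27% of 27305 promoters. The ETS motif CCGGAAGT or its reverse ACTTCCGG stood in 10 (14.9%), against 4.35%, and the palindromic NRF1 motif of 10 letters in 1 (1.49%), against 1.31%. The letters of none of the 3 motifs contain those of another. Of 16 matched members lower in 5 or more comparisons, 3 held the E-box (18.8%) and MRPL3 held the ETS motif (6.25%). Stretches of 80 bases before the start of these 4 genes are shown with the motif in capitals, since their values are given above.
MRPS2, E-box, chr9:135499872-135499951, plus strand: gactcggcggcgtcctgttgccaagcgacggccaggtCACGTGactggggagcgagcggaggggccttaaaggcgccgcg
MRPL22, E-box, chr5:154940860-154940939, plus strand: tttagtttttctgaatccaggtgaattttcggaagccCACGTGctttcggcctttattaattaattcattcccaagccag
MRPL45, E-box, chr17:38296998-38297077, plus strand: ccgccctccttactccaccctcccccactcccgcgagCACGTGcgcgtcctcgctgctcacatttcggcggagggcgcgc
MRPL3, ETS motif, chr3:131502972-131503051, minus strand: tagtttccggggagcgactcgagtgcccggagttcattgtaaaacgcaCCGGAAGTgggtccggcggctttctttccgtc
The E-box begins 56 bases before the start in MRPS2 and 176 in MRPL22, and the ETS motif begins 32 bases before it in MRPL3. Of the 8 matched members lower in no comparison, 1 held the E-box (12.5%) and 0 the ETS motif. A match is a run of letters and says nothing of whether a factor is bound there in these lines.

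MRPS30 and MRPS18A carry small subunit names, but structures of the mammalian ribosome place both in the large subunit. MRPS30 read 3695 and 3812 in vehicle, 2058 and 2076 at 0.5 µM, and 1949 and 1938 at 10 µM on arrays labelled VCaP, changes of -0.86 ± 0.11 and -0.95 ± 0.11 (SE, n = 2 each, limma adjusted p = 0.000327 and 5.71e-05). It was also lower at both doses on arrays labelled LNCaP (-0.60 and -0.58) and in PC3 (-0.48 and -0.48). In NCI-H660 it read 2244 and 2210, then 2634 and 2508, then 3452 and 2974, and was higher at 10 µM (0.52, adjusted p = 0.00741). MRPS18A was called in 0 of the 8 comparisons, with changes between -0.43 and 0.32, and its replicates were wide apart, as with 1471 and 2048 at 0.5 µM on arrays labelled LNCaP. Its paralogs were lower more often: MRPS18B in 4 comparisons, with -0.69 on arrays labelled LNCaP and -0.57 on arrays labelled VCaP at 10 µM, and MRPS18C in 3, with -0.44 and -0.70 on arrays labelled LNCaP and -0.46 in PC3 at 10 µM.

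The members that rose were few outside NCI-H660. MRPS6, a small subunit protein with a bacterial counterpart (chromosome 21), read 4742 and 3898 in vehicle, 6075 and 5921 at 0.5 µM, and 8772 and 8690 at 10 µM on arrays labelled LNCaP, changes of 0.48 ± 0.14 and 1.02 ± 0.14 (SE, n = 2 each, limma adjusted p = 0.0338 and 7.81e-05). For labelled VCaP, it read 1947 and 1700, then 2287 and 2360, then 2806 and 2796, and in NCI-H660 4874 and 4982, then 5629 and 5651, then 6694 and 6669, and it was higher at 10 µM in both. MRPS10 rose on arrays labelled LNCaP at 0.5 µM, with 4187 and 4261 against 2524 and 2678 in vehicle (0.70, adjusted p = 0.00658), while at 10 µM it read 3108 and 3098 and was not called (adjusted p = 0.271). MRPL40 rose at 10 µM in PC3 (0.28, adjusted p = 0.0675) as well as NCI-H660 (0.29, adjusted p = 0.0532) and fell on arrays labelled LNCaP (-0.38, adjusted p = 0.00704).

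Several mitochondria-specific proteins of the large subunit went opposite ways in different lines. MRPL41 read 2735 and 2648 in vehicle, 3721 and 3977 at 0.5 µM, and 5075 and 4479 at 10 µM in NCI-H660, changes of 0.52 ± 0.10 and 0.83 ± 0.10 (SE, n = 2 each, limma adjusted p = 0.0202 and 0.000147). For labelled LNCaP, it read 10374 and 9812, then 7269 and 7189, then 6991 and 7032, changes of -0.48 and -0.53. MRPL55 read 1330 and 1287, then 1879 and 1688, then 2077 and 1890 in NCI-H660 and 557 and 516, then 334 and 345, then 362 and 364 on arrays labelled LNCaP, higher in the first line and lower in the second at both doses. MRPL54 was higher on arrays labelled VCaP at 0.5 µM, with 3021 and 3027 against 2329 and 2250 in vehicle (0.40, adjusted p = 0.0494), and on arrays labelled LNCaP at 10 µM it read 716 and 801 against 1863 and 1723 in vehicle (-1.24, adjusted p = 3.54e-06), having been lower at 0.5 µM as well (-0.33). In NCI-H660 at 10 µM it was higher by 0.47 (adjusted p = 0.0164).

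Among the brightest and dimmest members, MRPL51 read 9394 and 9300 at 10 µM on arrays labelled LNCaP, against 11909 and 11432 in vehicle (-0.32, limma adjusted p = 0.0311), and it was called in no other comparison. MRPL57 was lower on arrays labelled LNCaP at both doses (-0.34 and -0.54) and higher in NCI-H660 at 10 µM (0.51, adjusted p = 0.00927). Of the dim ones, MRPL2 was higher in NCI-H660 at 10 µM (0.52, adjusted p = 0.0411) and not called elsewhere, and MRPL28 read 710 and 593 at 10 µM, against 1243 and 1404 in vehicle, on arrays labelled LNCaP (-1.03, adjusted p = 0.000179) and was lower at 10 µM in PC3 (-0.60) and NCI-H660 (-0.63) too.

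Across the 8 comparisons, 63 members were lower at least once, 18 in 5 or more and 12 in none. The shares of all probe sets lower that often were not counted, so these numbers have no background beside them. Of those 18, 14 have large and 4 have small subunit symbols. In the 4 comparisons of PC3 and NCI-H660, 46 members were lower in none, 14 in 1, 13 in 2, MRPS15 in 3 and MRPL15 in 4. MRPL30, MRPL35, MRPL49, MRPS18A, MRPS21 and MRPS31 were called in none of the 8 in either direction and, apart from MRPS18A, are named after their values were seen. Of the 37 genes with several probe sets, between 16 (NCI-H660 at 0.5 µM) and 25 (labelled LNCaP at 10 µM) had all their probe sets on the same side in a comparison with vehicle. A called probe set went against the called representative for MRPL19 in 2 comparisons and for MRPL42 in NCI-H660 at 10 µM.

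The subunits were then set side by side. At 10 µM on arrays labelled LNCaP, 43 of 48 large and 19 of 27 small subunit genes were lower, with median log2 changes of -0.74 and -0.58. At 0.5 µM the counts were 30 and 12 and the medians -0.39 and -0.40. On arrays labelled VCaP, 24 large and 16 small subunit genes were lower at 10 µM, with medians of -0.31 and -0.42, and 17 and 8 at 0.5 µM, with medians of -0.22 and -0.29. In PC3, 16 and 9 were lower at 10 µM (medians -0.21 and -0.25) and 6 and 4 at 0.5 µM (medians -0.13 and -0.16). Neither subunit had the lower median throughout. In NCI-H660 at 10 µM, 10 large subunit genes were lower and 12 higher, whereas 1 small subunit gene was lower and 6 higher, with medians of 0.06 and 0.12. Placing MRPS30 and MRPS18A with the large subunit gave 44 of 50 and 18 of 25 lower on arrays labelled LNCaP at 10 µM. The difference between the subunits was not tested.

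**Figure D4:**
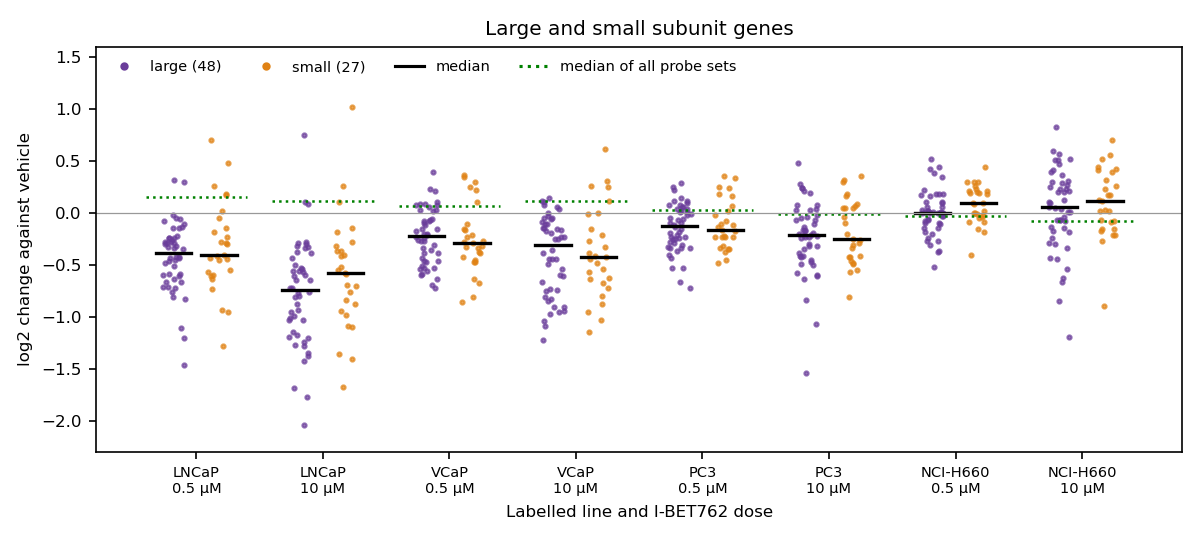
Log2 change against vehicle (vertical axis) of each large (purple) and small (orange) subunit gene in each labelled line and dose, with a black bar at each median and a dotted green line at the median of all probe sets. On arrays labelled LNCaP at 10 µM the medians were -0.74 and -0.58, and in NCI-H660 at 10 µM 0.06 and 0.12.

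The doses were then compared. Both comparisons of a line use the same 2 vehicle arrays, so their calls are not independent of each other. All 42 members lower at 0.5 µM on arrays labelled LNCaP were lower at 10 µM, and so were all 25 on arrays labelled VCaP and 7 of 10 in PC3. In those 3 lines 67, 59 and 49 of the 75 members had a more negative change at 10 µM, and 34 did in NCI-H660. The share of all probe sets that did was not counted. The members' median difference between the doses was -0.29, -0.12, -0.07 and 0.02 in the same order, beside -0.04, 0.03, -0.02 and -0.04 for all probe sets. Comparing 10 µM directly with 0.5 µM, 28 members were lower and 2 higher on arrays labelled LNCaP, against 4.18% and 3.95% of all probe sets. For labelled VCaP, 10 were lower and 0 higher, against 1.98% and 1.77%. MRPL23 was the only member lower in PC3, at -1.20 ± 0.11 (SE, n = 2 each, limma adjusted p = 0.000724), against 0.558% of all probe sets. In NCI-H660 MRPL23 (-0.81), MRPL11 (-0.67) and MRPS15 (-0.50) were lower and MRPL42 was higher (0.35, adjusted p = 0.0927), against 1.75% and 1.19%. MRPL42 is named because it was the only one. Of probe sets with a mean of 100 or more, 8.49% were lower and 8.02% higher for labelled LNCaP, against 37.3% and 2.67% of members. For labelled VCaP, 4.16% were lower and 3.72% higher, against 13.3% and 0% of members. In PC3, 1.14% were lower and 0.787% higher, against 1.33% and 0% of members. In NCI-H660, 3.49% were lower and 2.37% higher, against 4% and 1.33% of members. The members' shares in PC3 and NCI-H660 were thus near or below this background. With each line fitted by itself, limma called 0 members between the doses in any line, although before adjustment 28 had a p under 0.05 and were lower on arrays labelled LNCaP, as were 15 for labelled VCaP, 1 for PC3 and 4 for NCI-H660. Those higher by the same limma p numbered 2, 0, 0 and 4 in that order.

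The responses of the lines were compared by the mean change of the arrays labelled LNCaP and VCaP minus that of PC3 and NCI-H660. At 10 µM, 47 members had a lower mean response on arrays labelled LNCaP and VCaP and 1 had a higher one. Of all probe sets 7.62% and 9.59% did, and of those at 100 12.2% and 15.4%. At 0.5 µM the counts were 20 and 0, against 3.78% and 3.41% of all probe sets and 6.08% and 5.49% of those at 100. The median difference was -0.43 at 10 µM, beside 0.15 for all probe sets, and -0.23 at 0.5 µM, beside 0.09. MRPS12 differed most, by -1.31 ± 0.09 at 10 µM (SE, 8 arrays on each side) and by -0.89 ± 0.09 at 0.5 µM, followed among the genes described above by MRPL4 (-1.05), MRPL12 (-1.04) and MRPS25 (-0.95) at 10 µM. The SE and the calls rest on the spread between replicate cultures and do not measure the spread between lines. MRPS6 was the single member with the opposite sign that was called (0.42, limma adjusted p = 0.0575).

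The lines also differed before treatment. In vehicle, NCI-H660 had lower signals than the mean of the other 3 lines for 61 members and higher signals for 6, against 18% and 22.8% of all probe sets and 30.2% and 38.2% of those at 100. The median difference was -0.84, beside 0.09 for all probe sets, and 29 members (38.7%) were more than 2-fold lower, against 9.16% of all probe sets and 15.4% of those at 100. NCI-H660 was the lowest line for 55 members, and both of its arrays lay below all 6 others for 51. It was the highest for 3, whereas arrays labelled VCaP were highest for 37, PC3 for 23 and arrays labelled LNCaP for 12. By subunit, the large and the small one had 39 of 48 and 22 of 27 lower and medians of -0.91 and -0.77.

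MRPS12 differed most, at 876 ± 12.2 in NCI-H660, against 6416 ± 53.8 on arrays labelled LNCaP, 7282 ± 157 on arrays labelled VCaP and 6655 ± 108 in PC3 (SD, n = 2 each), a log2 difference of -2.95 ± 0.08 (SE, limma adjusted p = 2.82e-11). MRPL12 followed with 1047 ± 126 in NCI-H660, against 4790 ± 63.4, 3086 ± 29.8 and 5119 ± 171 in the others in the same order (-2.02). Both genes fell on arrays labelled LNCaP and VCaP, and both were lowest in NCI-H660, where neither was called. In PC3, where both were high in vehicle, MRPS12 was called lower at both doses and MRPL12 at 0.5 µM only. Whether the vehicle level bears on the response was not tested. In vehicle, MRPL41 (-1.81) and MRPL4 (-1.74) were also lower in NCI-H660. At the other end MRPS6 (0.52) and MRPL54 (0.51) were higher. With each array centred on its median, limma called 0 members higher in NCI-H660 in place of 6, and 0 were higher at an unadjusted p under 0.05. Without that centring, MRPL15 was slightly lower (-0.22, limma adjusted p = 0.055), at 5677 ± 101 in NCI-H660, against 5610 ± 166 in PC3, 6890 ± 273 on arrays labelled VCaP and 7460 ± 161 on arrays labelled LNCaP. For MRPL15, NCI-H660 and PC3 did not differ beyond their spread.

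**Figure D5:**
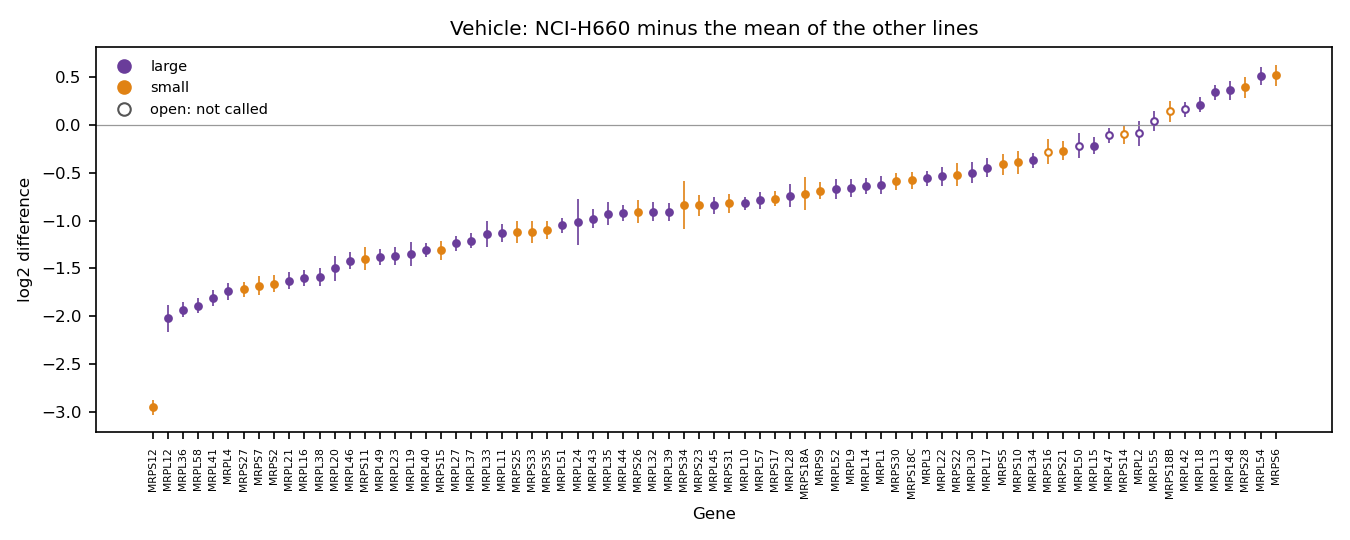
Log2 difference between vehicle NCI-H660 and the mean of the other 3 lines for each of the 75 genes, ordered by size, with bars of ± 1 SE, purple for large and orange for small subunit genes, and open circles for genes not called. MRPS12 is lowest at -2.95 and MRPS6 highest at 0.52.

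Other genes of mitochondrial protein synthesis were read from lists. Their shares at 10 µM are set beside those of probe sets at 100, of which 22.5% were lower and 26.8% higher on arrays labelled LNCaP, 17.2% and 20.1% on arrays labelled VCaP, 12.1% and 13.5% in PC3, and 14.7% and 13.8% in NCI-H660. Of 4 mitoribosomal proteins with other symbols, 2 (50%) were lower on arrays labelled LNCaP and 3 (75%) on arrays labelled VCaP. GADD45GIP1, a large subunit protein, read 595 ± 8.13 at 10 µM, against 1783 ± 231 in vehicle (SD, n = 2 each), on arrays labelled LNCaP (-1.58, limma adjusted p = 2.8e-07). DAP3, a small subunit protein that binds GTP, was higher in NCI-H660 at 10 µM (0.88, adjusted p = 0.00023).

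Of 9 genes of mitochondrial DNA replication and transcription, 5 were lower (55.6%) and 2 higher (22.2%) on arrays labelled LNCaP at 10 µM, so that only the lower share exceeded its background. On arrays labelled VCaP 4 were lower (44.4%) and 0 higher. TFB2M, a transcription initiation factor of the mitochondrial genome, fell by 2.11 and by 0.93 there, and TWNK, its replicative helicase, by 1.84 and 1.27. Of 15 translation factors and related proteins, 7 were lower (46.7%) and 2 higher (13.3%) on arrays labelled LNCaP, and 6 were lower (40%) and 2 higher on arrays labelled VCaP. Among them were TRMU, a tRNA-modifying enzyme (-1.23 on arrays labelled LNCaP), and TACO1, a translational activator (-0.90 on arrays labelled VCaP).

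Mitochondrial tRNA synthetases and assembly factors were called in both directions. Of 18 tRNA synthetases and related enzymes, 8 were lower (44.4%) and 2 higher (11.1%) at 10 µM on arrays labelled LNCaP, with FARS2 at -1.27 and QRSL1 at -1.14. In NCI-H660 6 were lower (33.3%) and 8 higher (44.4%), both above the background, and MARS2 was higher by 1.75 ± 0.14 (SE, n = 2 each, limma adjusted p = 3.88e-06). Of 24 assembly factors, 8 were lower (33.3%) and 3 higher (12.5%) on arrays labelled LNCaP. In NCI-H660 1 was lower (4.17%), under the background, and 7 higher (29.2%), with MPV17L2 higher by 1.80.

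Of 68 nuclear genes of oxidative phosphorylation, 40 were lower (58.8%) and 0 higher on arrays labelled LNCaP at 10 µM. In the other lines the lower share was near or below the background, at 8 genes (11.8%) for labelled VCaP, 10 for PC3 (14.7%) and 7 for NCI-H660 (10.3%), and 2, 4 and 16 were higher in the same order (2.94%, 5.88% and 23.5%). ATP5MC1, which encodes the ring subunit of ATP synthase, fell by 2.15 on arrays labelled LNCaP and by 1.23 on arrays labelled VCaP.

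Cytosolic ribosomal proteins, whose ribosomes translate nuclear messenger RNAs, had medians near 0 on arrays labelled LNCaP and VCaP. Of 61 such genes, 4 were lower (6.56%) and 0 higher at 10 µM on arrays labelled LNCaP, 0 and 0 on arrays labelled VCaP, and 1 and 1 in PC3, and in NCI-H660 0 were lower and 11 higher (18%). Their median log2 change at 10 µM was 0.03 on arrays labelled LNCaP and 0.01 on arrays labelled VCaP. It was 0.13 in PC3 and 0.29 in NCI-H660, beside -0.01 and -0.08 for all probe sets. The median of the 75 members in NCI-H660 was 0.06. The lower ones, none of them lower in NCI-H660 or on arrays labelled VCaP, include RPL22L1 (-1.59), a paralog of a cytosolic ribosomal protein, and RPS27L (-0.51).

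The lists were also read in vehicle, where 30.2% of probe sets at 100 were lower in NCI-H660 than in the other lines. Lower signals were called for 18 of 24 assembly factors (median log2 difference -0.70), 13 of 18 tRNA synthetases and related enzymes (-0.76), 10 of 15 translation factors and related proteins (-0.40), 5 of 9 genes of mitochondrial DNA replication and transcription (-0.68), 3 of 4 mitoribosomal proteins with other symbols (-0.52), 38 of 68 oxidative phosphorylation genes (-0.30) and 28 of 61 cytosolic ribosomal protein genes (-0.23). The difference between the lists was not tested.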

How the data were processed

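The 24 arrays (Affymetrix U133 Plus 2.0, polyA RNA) came from 4 lines treated for 24 h, with 2 biological replicates in each of 12 groups. The deposited values are linear MAS5 signal intensity per probe set, scaled by the authors to a trimmed mean of 500 on each array. No detection calls were used here.

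For this report, log2 signals of 54613 probe sets (62 control probe sets left out of 54675) were fitted with limma 3.58.1 in R 4.3.3 as 12 groups in a single model with 12 residual degrees of freedom, and p-values were adjusted over all probe sets per comparison. A change was called at an adjusted p under 0.1 with a mean of 100 or more in either group, without the fold minimum of the study's methods. Genes came from the platform's probe annotation: 41091 probe sets had 1 symbol, 1801 several and 11721 none. The limma script was tested on simulated data. Python 3.11.15 drew the figures.

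Named members were the called genes with the largest changes in each comparison with vehicle (up to 3 falls and 2 rises with no overlap between arrays), those lower in 5 or more of 8 comparisons, the 2 brightest, the 2 dimmest, and MRPL12, MRPS30 and the MRPS18 genes for their roles. From the other lists, members with large called changes were named. These lists were mitoribosomal proteins with other symbols, translation factors and related proteins, tRNA synthetases, assembly factors, mitochondrial DNA transcription, oxidative phosphorylation and cytosolic ribosomal proteins. The members and lists were chosen with earlier results of these data known. Some of the line markers listed are not reported here. Alternatives were quantile normalization, median centring, an offset of 50, a replicate block, each line alone, a 2-fold minimum, no detection floor, other probe sets, MRPS30 and MRPS18A placed with the large subunit, and each array left out. The number of arrays limits the precision.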

Additional observations from a re-analysis of the deposited data

Results flagged for a closer look

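For several named members, the mean response under the labels LNCaP and VCaP was unlike the mean of PC3 and NCI-H660 by limma's test of the difference itself. At 0.5 µM the log2 difference was -0.89 for MRPS12, -0.76 for MRPL4, -0.75 for MRPS25, -0.62 for MRPS2, -0.59 for MRPS30, -0.58 for MRPL12, -0.52 for MRPL41, -0.52 for MRPL55, -0.39 for MRPL34, -0.39 for MRPL46 and -0.36 for MRPL57. All of these were more negative as the mean of the arrays labelled LNCaP and VCaP, which need not hold for each label. For labelled VCaP, MRPL41 read 14660 and 14195 at 0.5 µM, against 13809 and 13336 in vehicle. MRPL55 read 2516 and 2037 there, against 2277 and 2022 in vehicle.

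At 10 µM it was -1.31 for MRPS12, -1.05 for MRPL4, -1.04 for MRPL12, -0.95 for MRPS25, -0.85 for MRPS2, -0.84 for MRPL41, -0.80 for MRPL54, -0.79 for MRPS30, -0.77 for MRPL34, -0.67 for MRPL57, -0.67 for MRPL3, -0.58 for MRPL32 and -0.51 for MRPL40. It was -0.49 for MRPL46, -0.47 for MRPL55, -0.43 for MRPL15, -0.38 for MRPL51, -0.37 for MRPL39, -0.34 for MRPL9 and 0.42 for MRPS6. MRPS6 alone among them had the higher mean response on the arrays labelled LNCaP and VCaP, where it rose. Here too the mean need not hold for each label. For labelled VCaP, MRPL55 read 2307 and 2427 at 10 µM, against 2277 and 2022 in vehicle. MRPL41, MRPL55 and MRPL57 were higher in NCI-H660 at 10 µM and lower on arrays labelled LNCaP.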

How the results depend on the processing

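With each line fitted alone, on 3 residual degrees of freedom, the members lower numbered 14 at 0.5 µM and 49 at 10 µM for labelled LNCaP, 1 and 29 for labelled VCaP, 0 and 1 for PC3 and 0 and 5 for NCI-H660. The members higher then numbered 1 for labelled LNCaP at 0.5 µM, 0 for labelled VCaP at 0.5 µM, 0 for PC3 at 10 µM, and 0 and 5 for NCI-H660 at 0.5 µM and 10 µM. Between the doses 0 were lower or higher in any line. With a 2-fold minimum, 4 and 21 were lower for labelled LNCaP at 0.5 µM and 10 µM, 0 and 5 for labelled VCaP, 0 and 2 for PC3, 0 and 1 for NCI-H660, 0 and 8 for the response difference, and 29 for NCI-H660 vehicle. Between the doses, 1 was then lower in labelled LNCaP and 0 in labelled VCaP and NCI-H660. Members higher numbered 1 for labelled LNCaP at 10 µM and 0 elsewhere.

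Median centring moved the median of all probe sets by over 0.1, as in NCI-H660 at 10 µM (0.0983, against -0.0807 before), in labelled LNCaP at 0.5 µM (-0.0339, against 0.149) and in the NCI-H660 vehicle comparison (-0.2259, against 0.0879). Under it 2 members were lower for PC3 at 0.5 µM, 0 and 4 for NCI-H660 at 0.5 µM and 10 µM, and 5 in labelled VCaP and 1 in NCI-H660 between the doses. Higher members were 1 for labelled LNCaP at 0.5 µM, 0 for labelled VCaP at 0.5 µM, 1 for PC3 at 10 µM, 1 for NCI-H660 at 0.5 µM, 0 for the response difference at 10 µM and 0 for NCI-H660 vehicle. Large subunit medians were -0.57 and -0.87 for labelled LNCaP, -0.28 and -0.44 for labelled VCaP and 0.06 and 0.24 for NCI-H660. Small subunit medians were -0.58 and -0.71, -0.36 and -0.56, and 0.16 and 0.29 in the same order, and -0.22 for PC3 at 10 µM.

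Same-numbered replicates did not deviate together (r between -0.0558 and 0.0755). The replicate block left 3 members lower for PC3 at 0.5 µM, 4 between the doses in labelled VCaP and 13 for the response difference at 0.5 µM. It left 0 higher for labelled VCaP at 0.5 µM, 1 for PC3 at 10 µM, 1 for NCI-H660 at 0.5 µM and 0 between the doses in NCI-H660. An offset of 50 gave 4 lower for NCI-H660 at 0.5 µM and 2 between the doses in PC3, and 2, 2, 5 and 5 higher for labelled VCaP, PC3 and NCI-H660 at 0.5 µM and between the doses in NCI-H660, with medians of -0.38 (large, labelled LNCaP at 0.5 µM) and -0.57 (small, labelled LNCaP at 10 µM). Quantile normalization gave 4 lower for NCI-H660 at 0.5 µM, 1 higher for PC3 at 0.5 µM and 0 between the doses in NCI-H660. Its medians were -0.35 and -0.29 (large, labelled LNCaP at 0.5 µM and labelled VCaP at 10 µM) and -0.37, -0.55 and 0.07 (small, labelled LNCaP at 0.5 µM and 10 µM and NCI-H660 at 10 µM). Placing MRPS30 and MRPS18A with the large subunit gave -0.42 and 0.08 (large, labelled LNCaP at 0.5 µM and NCI-H660 at 10 µM) and -0.30, -0.59 and 0.03 (small, labelled LNCaP at both doses and NCI-H660 at 10 µM). Without the detection floor all 30 counts stayed within 1.5 times.

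Other probe sets gave 0 lower between the doses in PC3, and 2 and 2 higher for labelled VCaP at 0.5 µM and 10 µM, 0 between the doses in NCI-H660 and 2 for the response difference at 10 µM. Their medians were -0.35 (large, labelled LNCaP at 0.5 µM) and -0.30, -0.66, -0.16 and 0.04 (small, labelled LNCaP at 0.5 µM and 10 µM, PC3 at 10 µM and NCI-H660 at 0.5 µM). They turned 13 named changes round, none of them called. MRPL12 became 0.38 for labelled LNCaP and 0.23 for PC3 at 0.5 µM, and MRPL23 became 0.12 for labelled LNCaP at 0.5 µM and 0.57 for labelled VCaP at 10 µM. MRPL39 became 0.31 and 0.57 for labelled LNCaP, 0.33 and 0.70 for labelled VCaP and 0.18 for PC3 at 10 µM. MRPS15 became 0.03 for labelled LNCaP at 0.5 µM, 0.02 for labelled VCaP at 10 µM and 0.15 and 0.04 for PC3. The mean signals of these probe sets were 10.2 (MRPL12), 66.4 (MRPL23), 80.6 (MRPL39) and 189 (MRPS15). The cause of these changes was not tested.

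Leaving out 1 array at a time, members lower ranged from 14 to 27 for labelled VCaP at 0.5 µM, 1 to 10 and 16 to 24 for PC3, 0 to 2 and 5 to 11 for NCI-H660, 17 to 33, 2 to 10, 1 to 3 and 1 to 3 between the doses (in the order labelled LNCaP, then VCaP, PC3 and NCI-H660), and 13 to 20 for the response difference at 0.5 µM. Members higher ranged from 1 to 3 for labelled LNCaP at 0.5 µM, 0 to 1 for labelled VCaP at 0.5 µM, 0 to 1 and 1 to 3 for PC3, 0 to 3 and 8 to 18 for NCI-H660, 1 to 2 and 0 to 1 between the doses in labelled LNCaP and NCI-H660, and 0 to 1 for the response difference at 10 µM. Large subunit medians ranged from -0.43 to -0.36 and -0.80 to -0.71 for labelled LNCaP, -0.34 to -0.31 for labelled VCaP at 10 µM, -0.15 to -0.08 and -0.23 to -0.16 for PC3 and 0.05 to 0.10 for NCI-H660 at 10 µM. Small subunit medians ranged from -0.40 to -0.30 and -0.59 to -0.56 for labelled LNCaP, -0.32 to -0.26 and -0.53 to -0.39 for labelled VCaP, -0.23 to -0.14 and -0.25 to -0.17 for PC3, and 0.05 to 0.15 and 0.06 to 0.15 for NCI-H660.

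The arrays that moved a count most can be named. For labelled VCaP at 0.5 µM, 14 were lower without vehicle replicate 1 and 16 without 0.5 µM replicate 2. For PC3 at 0.5 µM, 2, 1, 6 and 3 were lower without vehicle replicates 1 and 2 and 0.5 µM replicates 1 and 2, and at 10 µM 16 without vehicle replicate 1. For NCI-H660 at 10 µM, 5 were lower without vehicle replicate 1 and 6 without 10 µM replicate 2, and 10, 8 and 11 were higher without vehicle replicate 2 and 10 µM replicates 1 and 2. Between the doses, 17 were lower in labelled LNCaP without either 0.5 µM array or 10 µM replicate 1, and 2 or 3 in labelled VCaP without any of the 4. For the response difference at 0.5 µM, 13 were lower without NCI-H660 0.5 µM replicate 1, vehicle replicate 1 of labelled VCaP or LNCaP, labelled LNCaP 0.5 µM replicate 2 or PC3 0.5 µM replicate 1. Of 151 named changes, 84 lost the call with each line alone, 26 under median centring, 21 under the block, 15 with other probe sets (beside the 13 that turned round) and 5 under quantile normalization.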
